A study of Mus musculus with 42 samples.

Results

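The sarcomere genes examined here were 42 of the 13809 genes with values, picked by their names from the proteins of the thick filament, the thin filament, the Z-disc and the M-band, with the myosin heavy chains left out. Of these, 13 were classed as isoforms used mainly in fast fibers and 9 as isoforms used mainly in slow fibers. A further 2 were classed as isoforms of heart or developing muscle, and 18 as common to fast and slow fibers. All 42 passed the filter on low values in both sets.

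RNA from the tibialis anterior (TA), a mostly fast muscle at the front of the lower leg, was sequenced in 2 sets from male C57BL/6J mice at 4 months of age. Set 1 held WT muscle, Sesn1SkM-Tg muscle and Sesn2SkM-Tg muscle, each in the basal state and after 3 days in which the right hindlimb was kept immobilized. Set 2 held WT and Sesn1KO muscle in the same 2 states, and WT muscle 3 days after denervation, in which a piece of the sciatic nerve was taken out. Immobilized WT muscle of set 1 and immobilized Sesn1SkM-Tg muscle had 3 libraries each and the other groups 4. In the Sesn1SkM-Tg mice, human Sesn1 was driven by the promoter of muscle creatine kinase (MCK), and in the Sesn2SkM-Tg mice a Tet-regulated Sesn2 was driven by tTA, itself under the MCK promoter. That promoter acts in muscle fibers. The study found the Sesn1 transgene expressed in fast as well as slow muscles. How much of either product each fiber type carries was not tested here. The study names nontransgenic littermates as controls of each transgenic line, but set 1 has a single WT group, and the labels do not tie it to a line. The Sesn1KO mice lack Sesn1. Basal muscle came from mice that were neither immobilized nor denervated. Where nothing says that libraries of a group came from separate mice, the p-values given here measure the spread between libraries only.

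In the sarcomere, myosin thick filaments pull on actin thin filaments that are anchored at the Z-disc, while the M-band ties the thick filaments together and titin spans from the Z-disc to the M-band. Calcium released inside the fiber binds troponin C, and the troponin complex and tropomyosin then uncover the sites on actin to which myosin binds. Many of these proteins exist as a fast and a slow isoform from separate genes, and fibers can exchange one for the other when their nerve supply or load changes. Loss of thick filament proteins, light chains and myosin-binding protein C among them, is part of muscle atrophy.

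The sequence before the transcription start is shown for 6 members to which the results return. Acta1 had the highest basal level, Mybpc2 fell in every comparison with basal muscle, Mybph and Myom3 rose most after denervation among the members, Tnnc1 was among the slow genes with hardly any signal in basal muscle, and Fbxl22 was among the lowest members in basal muscle and rose most in immobilized WT muscle of set 1. RefSeq (GRCm38.p6) gave 34 promoter entries for 30 of the members, and the 250 bases before the start of each were searched on both strands. The capitals mark the motifs found: the E-box CAGCTG read by MyoD family factors, the MCAT motif CATTCC read by TEAD factors, the TATA box TATAAA, the CArG box of serum response factor and the MEF2 site. A MEF2 site or a CArG box can share letters with a TATA box, but none of the marked runs in these 6 sequences share a base.
Acta1: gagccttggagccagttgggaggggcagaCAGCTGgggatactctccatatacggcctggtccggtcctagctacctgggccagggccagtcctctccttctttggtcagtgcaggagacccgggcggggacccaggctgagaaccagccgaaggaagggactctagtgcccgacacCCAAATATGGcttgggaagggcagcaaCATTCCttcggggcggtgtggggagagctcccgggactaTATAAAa
Mybpc2: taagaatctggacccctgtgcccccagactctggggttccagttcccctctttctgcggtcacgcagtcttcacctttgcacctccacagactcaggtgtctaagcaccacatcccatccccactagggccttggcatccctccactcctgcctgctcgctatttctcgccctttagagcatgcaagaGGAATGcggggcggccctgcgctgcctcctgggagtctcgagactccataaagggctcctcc
Mybph: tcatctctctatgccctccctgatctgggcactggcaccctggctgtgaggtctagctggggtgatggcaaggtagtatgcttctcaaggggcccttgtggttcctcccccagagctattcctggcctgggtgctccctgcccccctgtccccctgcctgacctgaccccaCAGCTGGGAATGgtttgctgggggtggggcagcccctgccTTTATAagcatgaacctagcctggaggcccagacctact
Tnnc1: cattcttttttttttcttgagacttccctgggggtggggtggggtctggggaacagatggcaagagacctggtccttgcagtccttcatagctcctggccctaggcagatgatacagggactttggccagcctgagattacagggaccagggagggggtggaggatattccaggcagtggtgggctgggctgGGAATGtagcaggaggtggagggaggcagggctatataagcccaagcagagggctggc
Myom3: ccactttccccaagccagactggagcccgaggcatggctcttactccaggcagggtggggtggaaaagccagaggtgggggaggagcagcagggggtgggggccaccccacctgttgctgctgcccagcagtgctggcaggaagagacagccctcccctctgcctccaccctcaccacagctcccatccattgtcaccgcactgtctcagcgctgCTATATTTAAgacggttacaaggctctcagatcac
Fbxl22: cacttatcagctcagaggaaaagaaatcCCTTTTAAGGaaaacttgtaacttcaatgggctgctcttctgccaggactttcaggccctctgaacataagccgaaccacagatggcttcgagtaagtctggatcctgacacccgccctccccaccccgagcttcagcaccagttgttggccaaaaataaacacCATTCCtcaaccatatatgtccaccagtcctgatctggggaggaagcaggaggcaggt
Each sequence is written 5′ to 3′ along the gene's strand and ends at the base before the start. The windows lie at chr8:123894776-123895025, minus strand for Acta1, chr7:44524670-44524919, minus strand for Mybpc2, chr1:134193198-134193447, plus strand for Mybph, chr14:31208062-31208311, plus strand for Tnnc1, chr4:135759465-135759714, plus strand for Myom3 and chr9:66514594-66514843, minus strand for Fbxl22, and none of their bases is in an exon of GENCODE M21. The CArG box was in 7 of the 34 entries of members and in 1.47% of 32851 promoters of this length. Common genes had 5 of the 7, and 14 of the 34 entries. The windows of the Ldb3 entries overlap and hold the same CArG box, which is counted in each. The MEF2 site was in 4 entries, those of Myom3, Myoz2, Ttn and Xirp2, against 2.92% of all promoters. The E-box was in 11 entries (13% of all promoters), the MCAT motif in 9 (12.6%) and the TATA box in 5 (12.4%). The entries of Tnni1 likewise overlap and share the same E-box. The FoxO motif GTAAACA, named for factors that act in muscle atrophy, was in 0 of the 34 entries and in 3.17% of all promoters. Only this exact string was searched, so variants of it were neither counted nor marked. A match is a stretch of letters and not a shown binding site.

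The values were the authors' normalized counts per gene on a linear scale, and a library's values added up to between 722430 and 1276770. The number of reads behind them is unknown, so no counting interval is given. Sesn1 was 41.6 to 77.6 in basal Sesn1SkM-Tg libraries against 15.0 to 22.1 in basal WT libraries, and Sesn2 was 6.54 to 13.0 in basal Sesn2SkM-Tg libraries against 2.18 to 3.39. In set 2, Sesn1 was 8.41 to 10.05 in basal Sesn1KO libraries against 22.5 to 29.7 in WT, whereas after immobilization the Sesn1KO libraries (19.4 to 37.3) overlapped those of WT (30.7 to 53.1). Sesn1 therefore did not set the immobilized Sesn1KO libraries apart from WT. The summed markers of muscle fibers (7 genes such as Ckm and Pvalb) were 112748 to 126494 in basal WT muscle of set 2, 91433 to 99550.1 after immobilization and 35419 to 49929 after denervation, and in set 1 they were 102276 to 123655 in basal and 55317 to 73174 in immobilized WT muscle. In bulk RNA, fewer fibers and less RNA per fiber cannot be told apart. Macrophage and leukocyte markers (6 of 7 in the table) summed to 39.3 to 59.4 and 198 to 382 in basal and immobilized WT muscle of set 1, and to 34.1 to 149 and 111 to 217 in set 2. Heart markers (Myh6 and Nppa) summed to between 0.174 and 10.9 over all libraries. The part of these differences in the results was not tested.

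Several libraries stood apart in the members. Basal WT replicates 3 and 4 of set 1 were above replicates 1 and 2 in several genes, as in Actn2 (441, 594, 1217 and 2194 in replicates 1 to 4) and the slow Myl3 (15.9, 16.9, 64.9 and 115). Basal WT replicate 4 was also the lowest of its group in the long transcripts of Neb (4161), Ttn (5019) and Xirp2 (1369), and the highest in Tpm2 and Tcap. In Tnni1, basal Sesn1SkM-Tg replicate 4 (3.00), denervated WT replicate 1 (8.20) and basal Sesn1KO replicates 2 and 4 (4.06 and 3.47) were the highest of their groups, and in Myl2 it was basal Sesn2SkM-Tg replicate 2 (7.24). The part of these libraries in the results was tested only by leaving each out. Calls that depended on such a library are given with it where the gene is described.

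Basal WT muscle was dominated by fast isoforms. Per kb of exon, the order in both sets was Acta1, the actin of the skeletal muscle thin filament, then Tnnt3, Tnnc2, Mylpf, Tnni2, Myl1 and Actn3, which are the fast troponins, the fast light chains and the fast alpha-actinin. In set 1 these had 14671 ± 2316, 10455 ± 1273, 8759 ± 688, 5285 ± 1256, 4436 ± 636, 3336 ± 575 and 2513 ± 484 normalized counts per kb (mean ± SD, n = 4). The set 2 values were 13284 ± 1132, 10449.9 ± 428, 9411 ± 522, 5561 ± 585, 4609 ± 255, 3233 ± 387 and 2579.6 ± 258. Neighbours in this order overlapped in set 1 except Tnnc2 and Mylpf. The libraries of Acta1 ranged from 11649 to 17283 per kb and those of Tnnt3 from 9006 to 12016, whereas in set 2 the ranges of these genes (11757 to 14278 and 9949.6 to 10968) did not overlap.

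The slow gene with the highest level was Mybpc1, a myosin-binding protein C of slow fibers that fast fibers also make, at 602 ± 101 per kb in set 1 and 538 ± 68.0 in set 2, which placed it 14th of the members in set 1. The slow troponins and the slow regulatory light chain were near the floor of the measurement, with 1.64 ± 1.54 per kb for Tnnc1, 1.63 ± 1.19 for Tnnt1, 1.47 ± 0.872 for Myl2 and 0.464 ± 0.249 for Tnni1 in set 1, and the ranges of neighbours in this order overlapped. Fbxl22, an F-box protein of the Z-disc, was as low (0.558 ± 0.0690). All 42 members together made up 12.8% ± 0.986 of a library's summed values in basal WT muscle of set 1 and 12.3% ± 0.529 in set 2 (mean ± SD, n = 4). The lengths are those of all exon bases of a gene, so a gene whose muscle transcript uses few of its exons, such as Tpm3, is understated.

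**Figure D1:**
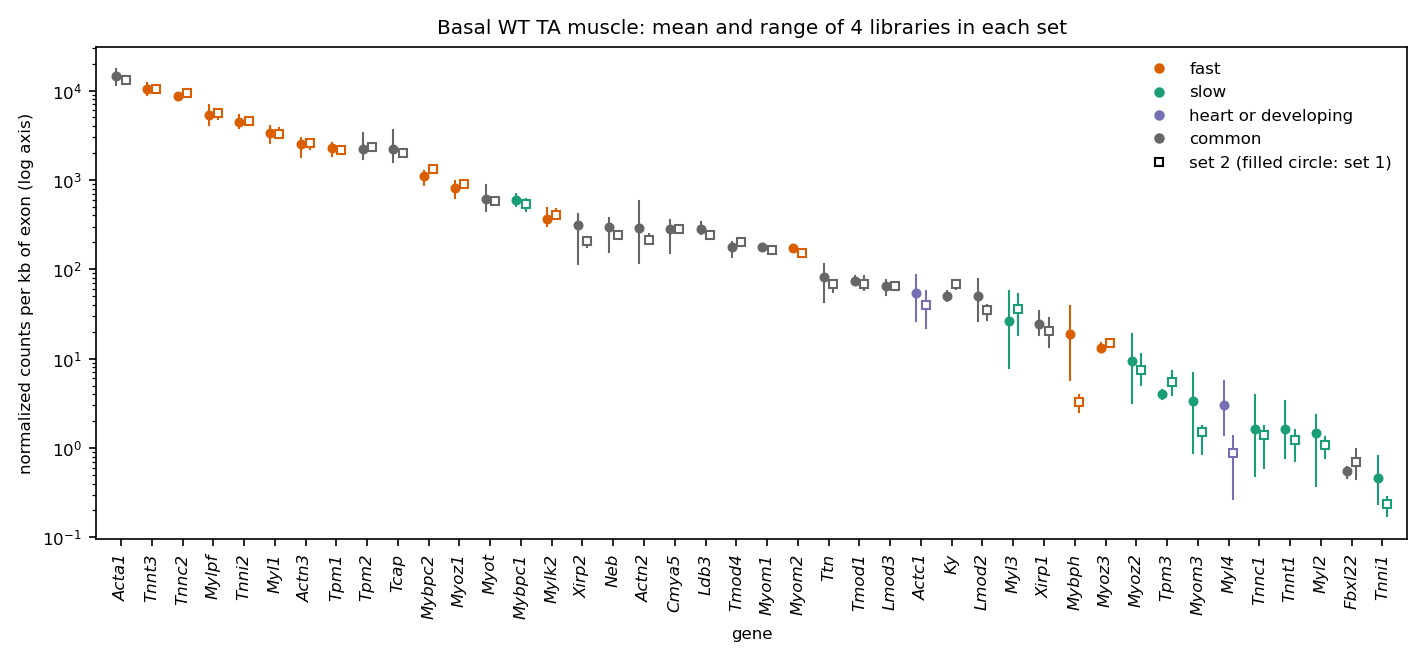
Basal WT level of each member per kb of exon (normalized counts per kb, log axis), as mean and range of 4 libraries in set 1 (filled circles) and set 2 (open squares), sorted by the level in set 1 and colored by class. Fast genes and Acta1 fill the upper end, and Tnnc1, Tnnt1, Myl2, Fbxl22 and Tnni1 lie at the lower end in set 1.

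The first question was how denervation and immobilization changed these genes in WT muscle, and set 2 holds both beside the same basal libraries. Denervation lowered most of the members. In denervated muscle 36 of 42 members differed from basal muscle, 6 higher and 30 lower (limma with Benjamini-Hochberg adjustment over all genes tested, called at an adjusted p below 0.05 with a log2 fold change of 0.25 or more in size). Of all genes tested, 55.5% differed in this comparison, 27.8% higher and 27.7% lower. The median log2 fold change of the members was -0.86, against -0.03 over all genes. Of the 13 fast genes 12 fell and 1 rose, of the 9 slow genes 3 fell and 2 rose, and of the 18 common genes 14 fell and 2 rose. Immobilization of the same genotype left the members split. Of 42 members, 17 differed from basal muscle, 9 higher and 8 lower, where 33.9% of all genes differed, 16.2% higher and 17.7% lower. In the fast class 5 fell and none rose by the limma test, and in the slow class 4 rose and none fell, while the common class had 5 higher and 2 lower.

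The authors' scale kept the median of all genes near 0, and another scale changes the split. When every library was set to a common sum, the median of all genes after denervation moved to 0.35 (log2) and 33 members differed, 9 higher and 24 lower. With quantile normalization 25 differed, 7 higher and 18 lower. The same scales gave 21 members (14 higher, 7 lower) and 19 members (12 higher, 7 lower) for immobilization, where the common sum moved the median of all genes to 0.076. Neb, Myot, Tcap, Ldb3 and Lmod3 became called higher after immobilization at a common sum, as did Tnnt1 and Fbxl22 after denervation, and with quantile normalization Acta1, Neb and Tnnc1 did after immobilization. Changes are therefore given relative to that scale, and genes that lost their call on another one are named. Counts of members on other scales or with a library left out, here and below, come without the share of all genes called there. They show how calls of members move and are not set against all genes.

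**Figure D2:**
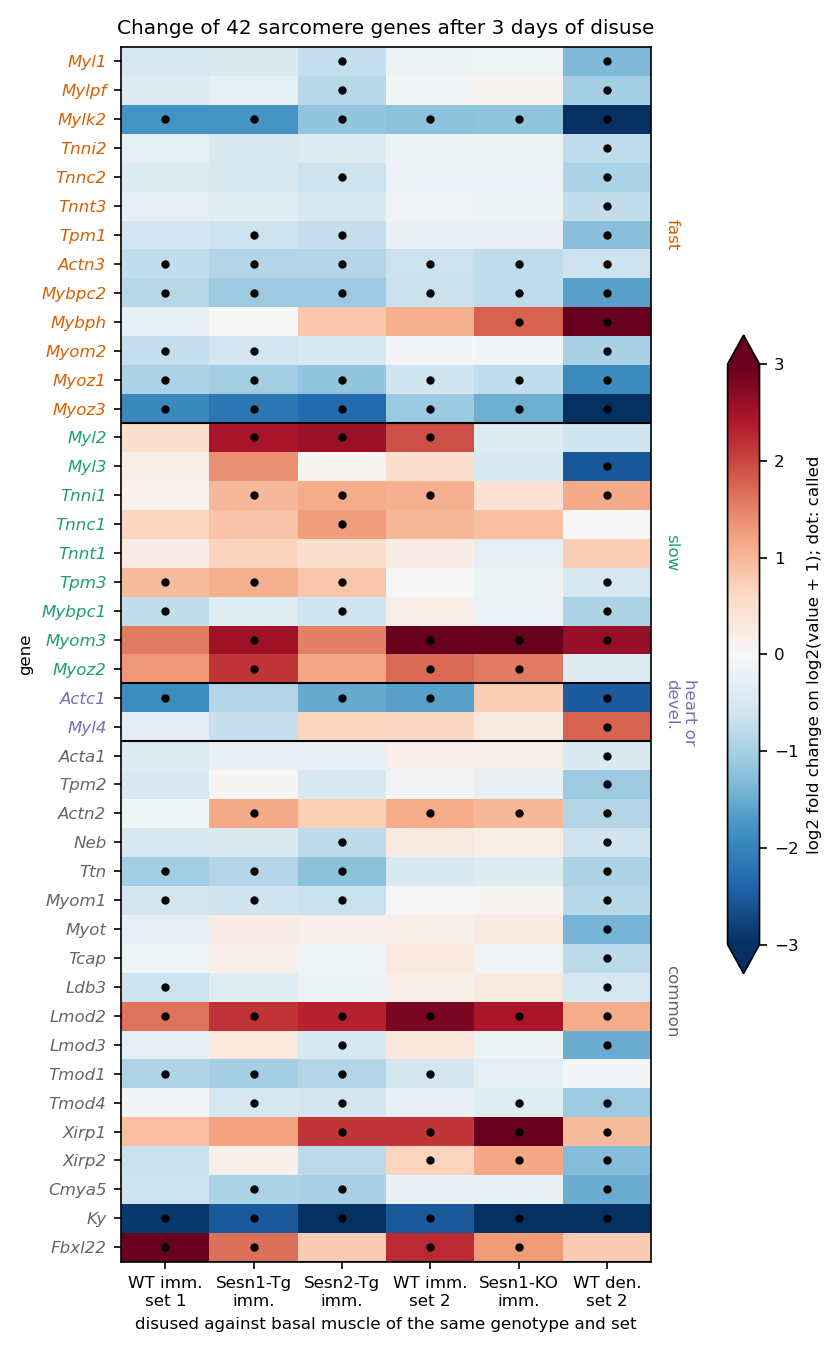
Log2 fold change of each member (rows, by class) in each of 6 comparisons of immobilized or denervated with basal muscle (columns), as color on a scale capped at -3 and 3, with a dot for a called change. Mylk2, Actn3, Mybpc2, Myoz1, Myoz3 and Ky are lower in every comparison, and Lmod2 is higher in every one.

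Among the fast genes of the thick filament, all but Mybph fell after denervation, and Mylk2 and Mybpc2 fell after immobilization too. Mylk2, the kinase that phosphorylates the regulatory light chain in skeletal muscle (ENSMUSG00000027470, chromosome 2, 152911352 to 152923068, plus strand of GRCm38 by GENCODE M21), had 1203, 1144, 1093 and 1393 normalized counts in basal WT muscle of set 2, 549, 558, 472 and 476 after immobilization and 115, 99.1, 167 and 180.5 after denervation. The 3 groups did not overlap, with basal muscle highest and denervated muscle lowest. The log2 fold change was -1.23 (SE 0.17, adjusted p = 1.48e-05) after immobilization and -3.13 (SE 0.17, adjusted p = 6.37e-12) after denervation. Mybpc2, the fast myosin-binding protein C whose promoter is printed above, had 4903, 4291, 5058 and 4819 in basal muscle, 3264, 3005, 2891 and 2764 after immobilization and 1096, 1582, 1869.9 and 1772 after denervation. Again the 3 groups were apart. Mybpc2 fell in both, with log2 fold changes of -0.68 (SE 0.17, adjusted p = 0.00344) and -1.62 (SE 0.17, adjusted p = 5.69e-08).

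The fast light chains passed after denervation and not after immobilization. Myl1, the fast essential light chain, had 6118, 6353, 6461 and 7891 in basal muscle, 6466, 5856, 5831 and 5842 after immobilization and 2383, 2536, 2734 and 2978 after denervation. Denervated libraries were all below the basal ones, and immobilized libraries overlapped them. Myl1 fell by log2 1.33 after denervation (SE 0.16, adjusted p = 3.25e-07) and its change under immobilization was -0.15 (SE 0.16, adjusted p = 0.477). Mylpf, the fast regulatory light chain that Mylk2 phosphorylates, gave -1.02 (SE 0.16, adjusted p = 1.37e-05) after denervation and -0.039 (SE 0.16, adjusted p = 0.879) after immobilization. With quantile normalization the denervation change of Mylpf was 0.0042, adjusted p = 0.975, so its direction rests on the scale.

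Myosin-binding protein H went the other way. Mybph (ENSMUSG00000042451, chromosome 1, 134193448 to 134201232, plus strand) had 6.64, 8.68, 9.03 and 5.92 in basal muscle, 22.9, 4.68, 18.7 and 36.0 after immobilization and 167, 222, 96.2 and 54.4 after denervation. All denervated libraries were above all others, and immobilized libraries overlapped the basal ones. Its rise after denervation was 3.81 (SE 0.61, adjusted p = 1.77e-05), the largest among the members, and its change after immobilization 1.07 (SE 0.61, adjusted p = 0.185) did not pass. Markers of developing or regenerating muscle (7 genes, Myh3, Myh8, Myod1, Myog, Pax7, Myf5 and Ncam1) summed to 218 to 319.7 in the denervated libraries against 31.8 to 35.4 in basal and 29.6 to 35.6 in immobilized ones, and their part in this change was not tested. Myl4, the essential light chain of atrium and embryonic muscle, also rose after denervation, from 3.50, 6.27, 5.12 and 1.24 to 23.7, 13.8, 11.4 and 12.3 (1.77, SE 0.32, adjusted p = 7.38e-05), while immobilized libraries had 6.06, 5.15, 5.70 and 7.89.

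Of the slow light chains, Myl3 fell after denervation and Myl2 rose after immobilization. Myl3, the slow essential light chain shared with the ventricle, was 72.9, 108, 78.1 and 37.3 in basal muscle, 111, 73.4, 102 and 109 after immobilization and 15.5, 9.56, 9.99 and 9.77 after denervation. Denervated libraries were below all others. The denervation change of Myl3 was -2.55 (SE 0.36, adjusted p = 3.76e-06), and its change under immobilization was 0.48 (SE 0.36, adjusted p = 0.32). Myl2, the slow regulatory light chain, was 2.60, 2.43, 1.79 and 1.52 in basal muscle, 13.6, 10.6, 10.5 and 8.37 after immobilization and 1.04, 0.796, 1.06 and 1.21 after denervation. Immobilized libraries were all above basal ones, and Myl2 rose there (1.93, SE 0.56, adjusted p = 0.0113), whereas denervated libraries, although all below the basal ones, did not pass (-0.60, SE 0.56, adjusted p = 0.388). Mybpc1 fell after denervation (-0.96, SE 0.15, adjusted p = 1.21e-05) and gave 0.20 (SE 0.15, adjusted p = 0.313) after immobilization.

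The myomesins of the M-band took different courses. Myom3, a myomesin classed here with the slow genes, has its promoter with a MEF2 site printed above. It had 10.8, 10.5, 9.98 and 5.12 in basal muscle, 129.6, 67.1, 112 and 143 after immobilization and 71.0, 59.9, 57.1 and 48.0 after denervation. Immobilized and denervated libraries were all above every basal library. Its log2 fold change was 3.49 (SE 0.34, adjusted p = 1.44e-07) after immobilization, the largest rise among the members, and 2.60 (SE 0.34, adjusted p = 1.2e-06) after denervation. Myom2, the myomesin of fast fibers, fell after denervation (-0.98, SE 0.10, adjusted p = 7.96e-08) and gave -0.058 (SE 0.10, adjusted p = 0.706) after immobilization. Myom1, found in all fibers, showed the same pair of results (-0.83, SE 0.13, adjusted p = 1.07e-05, and 0.021, SE 0.13, adjusted p = 0.921).

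The fast troponins, the calcium switch of the thin filament, fell moderately after denervation and gave small changes after immobilization. Tnnc2, the calcium-binding subunit, had 7024, 7599, 7455 and 8036 in basal muscle, 3405, 3726, 4124 and 4527 after denervation and 7154, 7208, 6528 and 5939 after immobilization. Denervated libraries did not overlap the basal ones, immobilized ones did. Its denervation change was -0.94 (SE 0.13, adjusted p = 2.18e-06), and those of Tnni2, the inhibitory subunit, and Tnnt3, which binds tropomyosin, were -0.75 (SE 0.12, adjusted p = 1.51e-05) and -0.75 (SE 0.14, adjusted p = 9.2e-05). With quantile normalization the direction of Tnni2 (0.19, adjusted p = 0.145) and Tnnt3 (0.082, adjusted p = 0.551) turned, and the call of Tnnc2 was lost (-0.027, adjusted p = 0.865). After immobilization the log2 fold changes were -0.17, -0.15 and -0.11 for these 3 genes, none of which passed (adjusted p = 0.323, 0.347 and 0.58).

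The slow troponins were measured at low levels. Tnni1, the slow inhibitory subunit, had 0.967, 1.01, 0.806 and 0.616 in basal muscle, 2.02, 3.19, 2.51 and 4.12 after immobilization and 8.20, 2.36, 2.38 and 1.52 after denervation. It was higher in all immobilized and all denervated libraries than in any basal one. Its log2 fold change was 1.08 (SE 0.37, adjusted p = 0.0278) after immobilization and 1.13 (SE 0.37, adjusted p = 0.0127) after denervation, on the log2(value + 1) scale, which understates changes at such levels. Denervated replicate 1 had more than 3 times the value of any other denervated library, and the denervation call was lost without denervated WT replicate 1 (adjusted p = 0.071). The immobilization call held in 4 of 8 fits that each left out 1 library, and was lost without basal WT replicates 3 or 4 or immobilized WT replicates 2 or 4 (adjusted p from 0.0539 to 0.075). Tnnc1, the slow calcium-binding subunit, gave 0.99 (SE 0.40, adjusted p = 0.0629) after immobilization and 0.012 (SE 0.40, adjusted p = 0.982) after denervation, and passed under immobilization with quantile normalization (1.02, adjusted p = 0.0491). Tnnt1, the slow tropomyosin-binding subunit, did not pass in either comparison (0.23, SE 0.39, adjusted p = 0.698, and 0.73, SE 0.39, adjusted p = 0.119).

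Tropomyosin lies along the thin filament, and its 3 genes fell after denervation. Tpm1, the alpha chain of fast fibers, had 12864, 13678, 13611 and 15332 in basal muscle and 4912, 5375, 6320.3 and 6591 after denervation (-1.27, SE 0.17, adjusted p = 1.62e-06). Tpm2, the beta chain, gave -1.09 (SE 0.12, adjusted p = 2.11e-07), and Tpm3, the alpha chain of slow fibers, -0.52 (SE 0.20, adjusted p = 0.0313). The calls of Tpm1 (-0.29, adjusted p = 0.0981) and Tpm2 (-0.092, adjusted p = 0.514) were lost with quantile normalization. That of Tpm3 was lost at a common sum (-0.070, adjusted p = 0.807), and held in 3 of 8 fits that left out 1 library, as it was lost without basal WT replicates 2 or 3 or denervated WT replicates 2, 3 or 4 (adjusted p from 0.0583 to 0.126). After immobilization the 3 genes gave -0.22, -0.081 and -0.00039, without passing (adjusted p = 0.343, 0.656 and 0.999).

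The thin filament actins also differed. Acta1 had 20145, 18058, 21932 and 21484 in basal muscle, 21459.6, 21823, 23310.1 and 23741 after immobilization and 13621, 14302, 15928 and 16104 after denervation. Its fall after denervation was small (-0.44, SE 0.15, adjusted p = 0.0182), it was lost without basal WT replicate 3 (adjusted p = 0.0519), and it turned at a common sum (0.023, adjusted p = 0.875) and with quantile normalization (0.33, adjusted p = 0.0694). Actc1, the actin of heart and developing skeletal muscle, had 66.5, 62.6, 92.0 and 35.3 in basal muscle, 17.99, 14.4, 15.3 and 31.9 after immobilization and 23.5, 6.85, 7.40 and 7.76 after denervation. It fell after denervation (-2.50, SE 0.57, adjusted p = 0.000808). After immobilization it was -1.63 (SE 0.57, adjusted p = 0.0308), a call that held in 2 of 8 fits that left out 1 library, as it was lost without basal WT replicates 1, 2 or 3 or immobilized WT replicates 1, 2 or 3 (adjusted p from 0.0583 to 0.0868).

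Proteins that set the length of the thin filament included the member that rose in every comparison with basal muscle. Lmod2, a leiomodin that starts actin filaments (ENSMUSG00000029683, chromosome 6, 24597762 to 24605414, plus strand), had 53.4, 71.1, 74.7 and 79.5 in basal muscle, 418, 446, 696 and 475 after immobilization and 155, 152, 144 and 150.4 after denervation. Immobilized libraries were above all others, and denervated ones above all basal ones. Its rise was 2.84 (SE 0.18, adjusted p = 5.34e-10) after immobilization and 1.11 (SE 0.18, adjusted p = 1.84e-05) after denervation. Its relative Lmod3 fell after denervation (-1.48, SE 0.14, adjusted p = 2.56e-08) and gave 0.34 (SE 0.14, adjusted p = 0.0727) after immobilization, where it passed at a common sum (0.47, adjusted p = 0.00838).

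Tropomodulins cap the pointed end of the thin filament. Tmod4, the skeletal muscle form, fell after denervation (-1.09, SE 0.11, adjusted p = 7.35e-08) and gave -0.22 (SE 0.11, adjusted p = 0.157) after immobilization. Tmod1 had 259, 232, 273 and 329 in basal muscle, 203, 164, 158 and 217 after immobilization and 290.4, 280.4, 245 and 243 after denervation. Immobilized libraries were below all basal ones (-0.56, SE 0.19, adjusted p = 0.0276), a call that held in 4 of 8 fits that left out 1 library, as it was lost without basal WT replicates 3 or 4 or immobilized WT replicates 2 or 3 (adjusted p from 0.0532 to 0.0888). It was also lost at a common sum (-0.43, adjusted p = 0.0654), where the denervation value of Tmod1 became 0.43, adjusted p = 0.0413. Neb, the nebulin that runs along the thin filament, fell after denervation (-0.60, SE 0.17, adjusted p = 0.00401) on the authors' scale, was not called at a common sum (-0.13, adjusted p = 0.437) and was higher with quantile normalization (0.42, adjusted p = 0.00993).

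**Figure D3:**
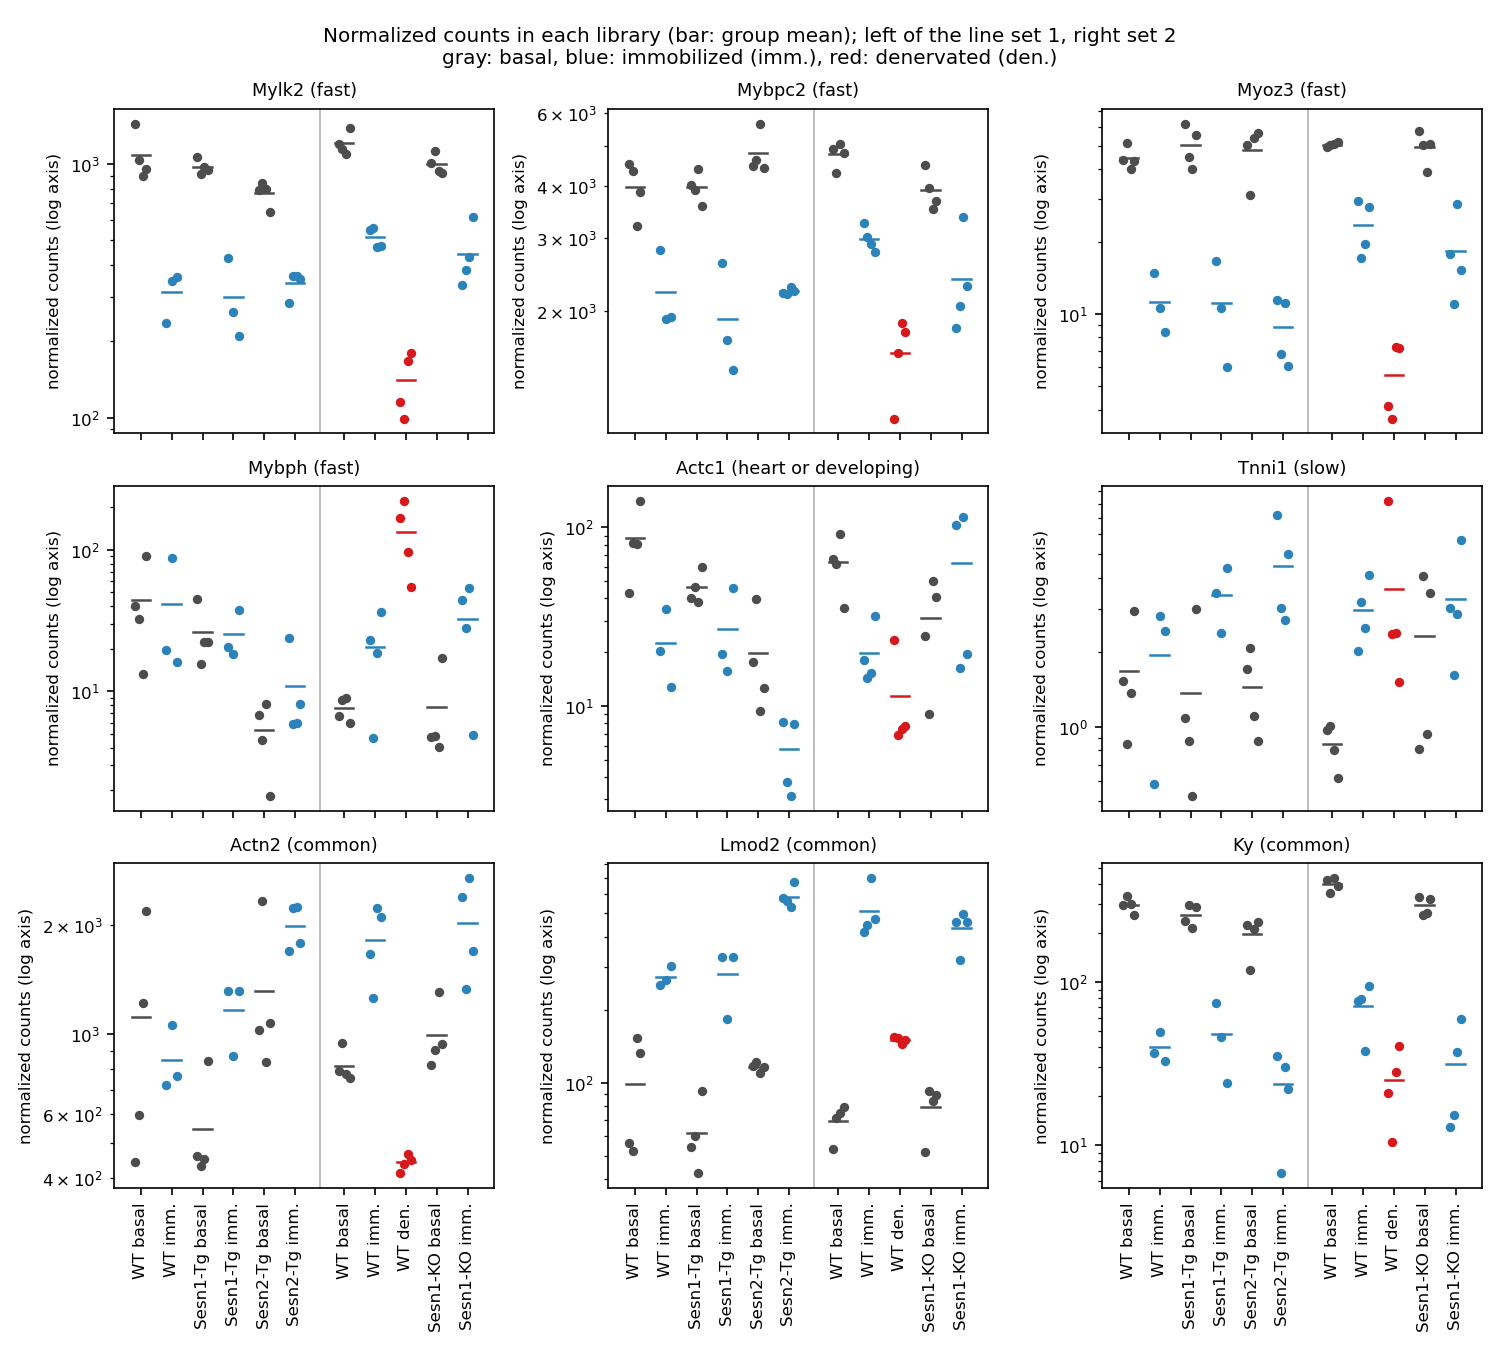
Normalized counts of 9 members (log axis) with a point per library in each of the 11 groups, a bar at the group mean, set 1 left of the gray line and set 2 right of it. In set 2, Mylk2, Mybpc2 and Myoz3 are lowest in denervated muscle and Mybph is highest there, while Lmod2 in immobilized WT muscle lies above denervated and basal WT muscle.

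At the Z-disc, the alpha-actinins that crosslink actin filaments moved apart under immobilization. Actn3, the fast form, had 7862, 6372, 7990.4 and 7709 in basal muscle, 5267, 5078, 4894 and 3957 after immobilization and 4164, 5663, 4772 and 4744 after denervation. It fell by a like amount in both (-0.64, SE 0.18, adjusted p = 0.00698, and -0.63, SE 0.18, adjusted p = 0.0042). The denervation change of Actn3 was not called at a common sum (-0.17, adjusted p = 0.366) and turned with quantile normalization (0.34, adjusted p = 0.117), which also ended its immobilization call (-0.29, adjusted p = 0.225). Actn2, the form found in all fibers, had 792, 945, 776 and 755 in basal muscle, 1669, 1260.3, 2232 and 2113 after immobilization and 411, 437, 465 and 449 after denervation. Immobilized libraries were all above and denervated libraries all below the basal ones. Actn2 rose by 1.12 (SE 0.19, adjusted p = 0.00013) on the log2 scale after immobilization, and the denervation change was -0.89 (SE 0.19, adjusted p = 0.000554).

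The myozenins bind alpha-actinin and calcineurin at the Z-disc, and their fast members fell. Myoz1, the main fast form, had 1710.1, 1611, 1605 and 1854 in basal muscle, 1250.3, 1116, 1042 and 1060.0 after immobilization and 352, 427, 531 and 528 after denervation. The groups did not overlap, and the changes were -0.60 (SE 0.15, adjusted p = 0.00397) and -1.90 (SE 0.15, adjusted p = 1.29e-09). Myoz3, a form of fast fibers at lower level, had 49.8, 50.4, 50.9 and 52.1, then 29.6, 17.1, 19.6 and 27.8, then 4.14, 3.67, 7.29 and 7.22 in the same order. Again no library of a group lay within another group, with changes of -1.11 (SE 0.23, adjusted p = 0.000808) and -3.03 (SE 0.23, adjusted p = 6.88e-10). Myoz2, the slow form, had 29.5, 38.4, 17.7 and 17.4 in basal muscle, 96.9, 54.5, 81.4 and 99.4 after immobilization and 17.9, 12.9, 21.9 and 21.0 after denervation. It rose after immobilization (1.69, SE 0.29, adjusted p = 0.000138), and its denervation change was -0.41 (SE 0.29, adjusted p = 0.245).

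Ky, a Z-disc protein named for the kyphoscoliosis mutant mouse in which it is lost (ENSMUSG00000035606, chromosome 9, 102505750 to 102546239, plus strand), fell most of all members. It had 424, 351, 434 and 391 in basal muscle, 76.2, 78.6, 38.1 and 94.7 after immobilization and 20.9, 10.4, 28.0 and 40.7 after denervation. Basal libraries were above all others, and denervated and immobilized libraries overlapped by 1 library of each. The change of Ky was -2.53 (SE 0.38, adjusted p = 3.56e-05) after immobilization and -4.09 (SE 0.38, adjusted p = 1.41e-08) after denervation. The actin-binding Xin proteins moved differently from each other. Xirp1 rose in both, by 2.14 (SE 0.34, adjusted p = 5.04e-05) after immobilization and 0.94 (SE 0.34, adjusted p = 0.0219) after denervation on the log2 scale, although its denervation call was lost without basal WT replicates 1 or 2 or denervated WT replicate 2 (adjusted p from 0.0573 to 0.0805) and in a fit of both sets (adjusted p = 0.0757). Xirp2 had 2571, 2673, 2537 and 2113 in basal muscle, 4356, 2973, 4101 and 4393 after immobilization and 807, 962, 1248 and 1032 after denervation. It was called higher after immobilization (0.67, SE 0.21, adjusted p = 0.0174), a call lost without basal WT replicate 4 (adjusted p = 0.0531) and in a fit of both sets (adjusted p = 0.106), and lower after denervation (-1.30, SE 0.21, adjusted p = 1.98e-05).

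The other Z-disc and elastic filament genes fell after denervation and mostly did not pass after immobilization. Myot, the myotilin that bundles actin, gave -1.40 (SE 0.11, adjusted p = 1.22e-09) and 0.17 (SE 0.11, adjusted p = 0.242) in this order, and Cmya5, a large protein near the Z-disc, -1.50 (SE 0.14, adjusted p = 1.16e-08) and -0.20 (SE 0.14, adjusted p = 0.282). Tcap, which binds the end of titin at the Z-disc, gave -0.79 (SE 0.17, adjusted p = 0.000508) and 0.29 (SE 0.17, adjusted p = 0.197). Ttn gave -0.95 (SE 0.20, adjusted p = 0.000417) and -0.46 (SE 0.20, adjusted p = 0.086), and Ldb3, a PDZ and LIM protein of the Z-disc, -0.53 (SE 0.12, adjusted p = 0.00054) and 0.16 (SE 0.12, adjusted p = 0.291). The denervation calls of Tcap (-0.33, adjusted p = 0.0641) and Ldb3 (-0.065, adjusted p = 0.582) were lost at a common sum, and those of Tcap, Ldb3 and Ttn with quantile normalization. Fbxl22 had 3.85, 1.75, 1.99 and 3.40 in basal muscle, 9.33, 24.8, 23.2 and 12.4 after immobilization and 4.04, 4.20, 8.50 and 4.71 after denervation. It rose after immobilization (2.24, SE 0.41, adjusted p = 0.00024), with every immobilized library above the basal ones, and after denervation it gave 0.76 (SE 0.41, adjusted p = 0.122).

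The denervated and immobilized WT libraries of set 2 were then compared with each other, a comparison that needs no basal library. It called 36 of 42 members, 3 higher and 33 lower in denervated muscle, where 38.9% of all genes differed, 20.5% higher and 18.4% lower. The median log2 difference of the members was -0.98. The genes lower in denervated muscle were 11 fast, 6 slow and 16 common genes. At a common sum, 33 members differed, 3 higher and 30 lower, with the median of all genes at 0.26, and with quantile normalization 28, 4 higher and 24 lower. Acta1 lost the call on both scales, Tpm3 and Myom3 at a common sum, and Mylpf, Tnni2, Tnnc2, Tnnt3, Mybpc2, Neb, Tcap and Ldb3 with quantile normalization. Mybph (2.75, SE 0.61, adjusted p = 0.00111), Myl4 (1.14, SE 0.32, adjusted p = 0.0071) and Tmod1 (0.52, SE 0.19, adjusted p = 0.0352) were the 3 that were higher in denervated muscle, and that of Tmod1 was lost without denervated WT replicates 1 or 2 or immobilized WT replicates 2 or 3 (adjusted p from 0.079 to 0.0977).

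The largest differences to lower values in denervated muscle were in slow genes and in genes that rose under immobilization. Myl3 differed by -3.04 (SE 0.36, adjusted p = 1.05e-06), Myl2 by -2.52 (SE 0.56, adjusted p = 0.00122), Myoz2 by -2.10 (SE 0.29, adjusted p = 8.28e-06), Actn2 by -2.01 (SE 0.19, adjusted p = 6.67e-08) and Xirp2 by -1.97 (SE 0.21, adjusted p = 2.57e-07). For Actn2 and Xirp2, called in opposite directions against basal muscle, this difference is the direct test. Among fast genes Myoz3 (-1.91, SE 0.23, adjusted p = 1.4e-06) and Mylk2 (-1.90, SE 0.17, adjusted p = 2.88e-08) differed most. Actn3 did not differ detectably (0.011, SE 0.18, adjusted p = 0.965), nor did Tnni1 (0.053, SE 0.37, adjusted p = 0.921), although with quantile normalization Actn3 was higher in denervated muscle (0.63, adjusted p = 0.0082). The difference of Tnni2 (-0.60, SE 0.12, adjusted p = 0.000372) turned with quantile normalization (0.079, adjusted p = 0.603), and the calls of Tpm3 (-0.52, SE 0.20, adjusted p = 0.0436) and Myom3 (-0.89, SE 0.34, adjusted p = 0.0411) held in 3 and 2 of 8 fits that left out 1 library. Tpm3 was lost without denervated WT replicates 2, 3 or 4 or immobilized WT replicates 3 or 4 (adjusted p from 0.0798 to 0.116), and Myom3 without denervated WT replicates 2, 3 or 4 or immobilized WT replicates 1, 3 or 4 (adjusted p from 0.0688 to 0.111).

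**Figure D4:**
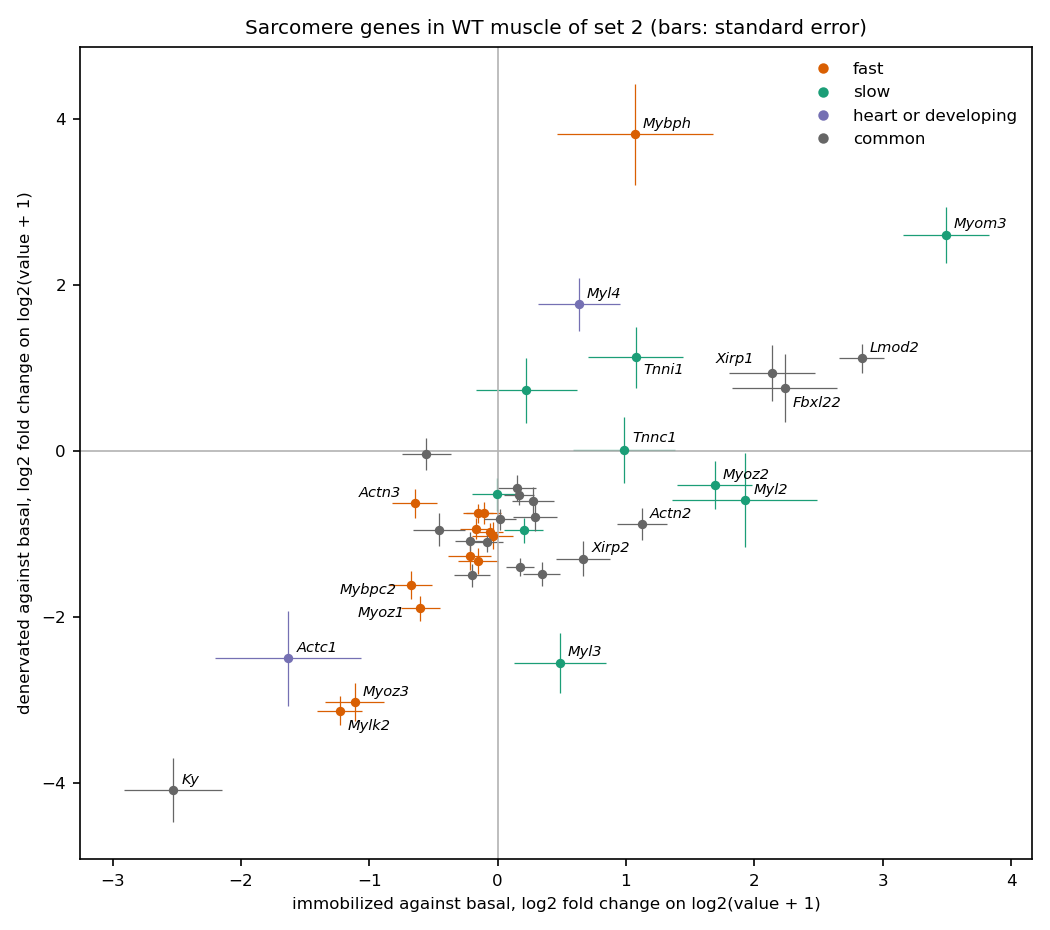
Log2 fold change of each member after denervation (vertical axis) against that after immobilization (horizontal axis) in WT muscle of set 2, with a point per gene colored by class and bars of 1 standard error. Both changes use the same 4 basal libraries. Actn2 and Xirp2 lie at the lower right, Myom3, Lmod2 and Xirp1 at the upper right, and Ky, Mylk2 and Myoz3 at the lower left.

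Set 1 holds the same comparison of immobilized with basal WT muscle in other libraries. There 16 of 42 members differed, 3 higher and 13 lower, where 29.3% of all genes differed, 14.9% higher and 14.5% lower. The median change of the members was -0.40, against 0.00 over all genes. Of the fast genes 6 of 13 fell, and of the slow genes 1 rose and 1 fell. Without basal WT replicate 4, 20 members differed, 5 higher and 15 lower. At a common sum the median of all genes moved to 0.28 and 14 members differed, 5 higher and 9 lower, and with quantile normalization 9 did, 3 higher and 6 lower.

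Ky, Myoz3, Actc1 and Mylk2 had the largest falls in set 1, given here with the basal libraries first. Ky had 298, 336, 303 and 259 in basal and 36.6, 49.7 and 33.1 in immobilized WT muscle (-2.89, SE 0.39, adjusted p = 4.13e-05), Myoz3 43.8, 51.4, 40.4 and 43.4 and 14.8, 10.6 and 8.38 (-1.93, SE 0.27, adjusted p = 6.19e-05), and Mylk2 1446, 1034, 895 and 953 and 236, 346 and 358 (-1.78, SE 0.20, adjusted p = 9.67e-06). In each the immobilized libraries were below all basal ones. Actc1 was 43.0, 82.2, 80.9 and 141 in basal and 20.2, 34.8 and 12.8 in immobilized muscle (-1.88, SE 0.45, adjusted p = 0.00382). Myoz1 (-0.96, SE 0.20, adjusted p = 0.00159), Mybpc2 (-0.86, SE 0.19, adjusted p = 0.00272), Actn3 (-0.75, SE 0.19, adjusted p = 0.00684) and Tmod1 (-0.89, SE 0.13, adjusted p = 8.94e-05) also fell. The calls of Actn3 (-0.23, adjusted p = 0.318) and Mybpc2 (-0.40, adjusted p = 0.116) were lost with quantile normalization.

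Fbxl22 rose most in set 1, from 2.24, 2.44, 2.29 and 1.81 in basal to 26.1, 29.1 and 38.3 in immobilized WT muscle (3.32, SE 0.37, adjusted p = 7.55e-06). Its promoter window holds a CArG box and an MCAT motif. Lmod2 had 56.2, 52.1, 153 and 132 in basal and 253, 264 and 303 in immobilized muscle (1.62, SE 0.30, adjusted p = 0.000645), and the immobilized libraries were above the basal ones. Tpm3 had 21.3, 22.2, 27.0 and 26.9 and 36.0, 43.4 and 68.9 (0.95, SE 0.23, adjusted p = 0.0043), and lost its call without immobilized WT replicate 3 (adjusted p = 0.0554). Macrophages and fibroblasts also make Tpm3. Fibroblast markers (5 genes) summed to 425 to 1099 in basal and 864 to 1635 in immobilized WT muscle of set 1, against 480.1 to 792 and 503 to 1697 in set 2, where Tpm3 gave -0.00039. The part of those cells in its change was not tested.

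Slow genes and Actn2 that rose in set 2 gave no call in set 1, where the basal libraries were wide. Myl2 had 2.32, 0.739, 3.76 and 4.61 in basal and 3.44, 6.76 and 2.50 in immobilized muscle (0.49, SE 0.51, adjusted p = 0.499), Myom3 5.25, 6.34, 27.1 and 41.7 and 32.6, 67.5 and 38.0 (1.55, SE 0.63, adjusted p = 0.0671), and Actn2 441, 594, 1217 and 2194 and 720.0, 1062 and 765 (-0.13, SE 0.41, adjusted p = 0.837). In all 3 genes the groups overlapped. Myoz2 gave 1.30 (SE 0.54, adjusted p = 0.0731). With every library at a common sum, Myoz2 (1.63, adjusted p = 0.0179) and Myom3 (1.87, adjusted p = 0.024) passed. Mybpc1 fell (-0.74, SE 0.18, adjusted p = 0.00494), as did Ldb3 (-0.65, SE 0.17, adjusted p = 0.00741), Ttn (-1.03, SE 0.34, adjusted p = 0.0257), Myom1 (-0.55, SE 0.18, adjusted p = 0.0287) and Myom2 (-0.71, SE 0.20, adjusted p = 0.0126), all of which lost the call with quantile normalization, and all but Mybpc1 at a common sum. Single libraries also decided some of these calls: that of Ldb3 was lost without immobilized WT replicate 3 (adjusted p = 0.055), that of Myom2 without immobilized WT replicate 1 (adjusted p = 0.0505), that of Myom1 without basal WT replicate 2 or immobilized WT replicates 2 or 3 (adjusted p from 0.0627 to 0.116), and that of Ttn without basal WT replicates 1 or 2 or immobilized WT replicates 1, 2 or 3 (adjusted p from 0.0532 to 0.0936).

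The next question was whether extra Sesn1 or Sesn2 in muscle goes with another response of these genes. In Sesn1SkM-Tg muscle immobilization changed 21 of 42 members, 8 higher and 13 lower, where 34.7% of all genes differed, 18.2% higher and 16.5% lower. Without immobilized Sesn1SkM-Tg replicate 3 it was 13 members. At a common sum, 19 members differed, 12 higher and 7 lower, with the median of all genes at 0.25, and with quantile normalization 16, 10 higher and 6 lower. Tpm1, Myom2, Ttn, Myom1, Tmod4 and Cmya5 lost the call on both scales and Actn3 and Tnni1 with quantile normalization, while Myot, Lmod3 and Xirp1 became called higher on both and Myl3 at a common sum. In Sesn2SkM-Tg muscle 25 members differed, 6 higher and 19 lower, where 30.7% of all genes differed, 15% higher and 15.7% lower. At a common sum this became 24 members, 12 higher and 12 lower, with the median of all genes at 0.26, and with quantile normalization 18, 7 higher and 11 lower. Myl1, Neb and Cmya5 lost the call on both scales, Mybpc1, Myom1, Lmod3 and Tmod4 at a common sum, and Mylpf, Tnnc2, Tpm1, Actn3 and Ttn with quantile normalization. Myom3 became called higher on both, and Myoz2, Myl4, Actn2, Myot and Fbxl22 at a common sum. The fast genes gave 7 lower in Sesn1SkM-Tg and 9 lower in Sesn2SkM-Tg muscle with none called higher by limma, and the slow genes 5 higher in the first and 4 higher and 1 lower in the second.

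In both transgenic lines Ky, Myoz3 and Mylk2 fell. Ky had 238, 296, 215 and 288 in basal and 74.5, 46.0 and 24.2 in immobilized Sesn1SkM-Tg muscle (-2.53, SE 0.39, adjusted p = 9.69e-05), and 224, 119, 213 and 234 and 35.5, 6.73, 30.2 and 21.99 in Sesn2SkM-Tg muscle (-3.18, SE 0.36, adjusted p = 2.24e-06). Immobilized libraries were below all basal ones of the same genotype. Myoz3 changed by -2.17 (SE 0.27, adjusted p = 1.73e-05) and -2.33 (SE 0.25, adjusted p = 1.35e-06), and Mylk2 by -1.76 (SE 0.20, adjusted p = 6.99e-06) and -1.18 (SE 0.19, adjusted p = 9.29e-05). Lmod2 rose in both, by 2.17 (SE 0.30, adjusted p = 4.15e-05) in Sesn1SkM-Tg and 2.32 (SE 0.28, adjusted p = 4.67e-06) in Sesn2SkM-Tg muscle.

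Slow genes were called higher in both lines. Myl2 had 0.601, 1.39, 0.430 and 1.76 in basal and 7.98, 12.2 and 9.43 in immobilized Sesn1SkM-Tg muscle (2.45, SE 0.51, adjusted p = 0.00117), and 1.52, 7.24, 0.777 and 1.50 and 18.7, 10.96, 8.87 and 47.5 in Sesn2SkM-Tg muscle (2.56, SE 0.47, adjusted p = 0.00035). Basal Sesn2SkM-Tg replicate 2 was above the other basal libraries of its group. Myoz2 gave 2.14 (SE 0.54, adjusted p = 0.0046) and 1.15 (SE 0.50, adjusted p = 0.0863), Myom3 2.54 (SE 0.63, adjusted p = 0.00393) and 1.52 (SE 0.58, adjusted p = 0.0511), and Tpm3 1.07 (SE 0.23, adjusted p = 0.0014) and 0.84 (SE 0.21, adjusted p = 0.0048). Tnni1 was called in both (0.97, SE 0.35, adjusted p = 0.0358, and 1.12, SE 0.33, adjusted p = 0.0123), but in Sesn1SkM-Tg muscle its call held in 2 of 7 fits that left out 1 library, as it was lost without basal Sesn1SkM-Tg replicates 1, 2 or 3 or immobilized Sesn1SkM-Tg replicates 1 or 3 (adjusted p from 0.0703 to 0.153). In Sesn2SkM-Tg muscle it was lost without immobilized Sesn2SkM-Tg replicate 1 (adjusted p = 0.0504). Actn2 rose in Sesn1SkM-Tg muscle (1.13, SE 0.41, adjusted p = 0.0354), a call lost without basal Sesn1SkM-Tg replicates 1, 2 or 3 or immobilized Sesn1SkM-Tg replicates 1 or 3 (adjusted p from 0.0755 to 0.124), and gave 0.70 (SE 0.38, adjusted p = 0.163) in Sesn2SkM-Tg muscle.

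In Sesn2SkM-Tg muscle the fast light chains and Tnnc2 passed as well. Myl1 had 5164, 7583, 5276 and 5386 in basal and 4149, 2435, 3736 and 4139 in immobilized libraries (-0.71, SE 0.23, adjusted p = 0.024), Mylpf 8322, 9973, 7213 and 6823 and 5001, 3380.2, 5258 and 4654 (-0.83, SE 0.22, adjusted p = 0.00704), and Tnnc2 8568, 10616, 8601 and 7886 and 6206, 4487, 6116 and 6095 (-0.64, SE 0.18, adjusted p = 0.00847). Immobilized libraries were below all basal ones in each gene. The call of Myl1 was lost without basal Sesn2SkM-Tg replicate 2 or immobilized Sesn2SkM-Tg replicate 2 (adjusted p from 0.0713 to 0.106). In Sesn1SkM-Tg muscle the same genes gave -0.43, -0.28 and -0.47 (adjusted p = 0.189, 0.373 and 0.0621). Tpm1 fell in both lines (-0.64, SE 0.23, adjusted p = 0.0341, and -0.72, SE 0.21, adjusted p = 0.0134), with the call lost without basal Sesn1SkM-Tg replicates 1, 2, 3 or 4 or immobilized Sesn1SkM-Tg replicates 2 or 3 (adjusted p from 0.0517 to 0.162) and, in the other line, without immobilized Sesn2SkM-Tg replicate 2 (adjusted p = 0.0616).

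Large filament and M-band genes also passed. In Sesn1SkM-Tg muscle, Ttn (-0.88, SE 0.34, adjusted p = 0.0479), Cmya5 (-0.95, SE 0.30, adjusted p = 0.0186), Tmod4 (-0.53, SE 0.19, adjusted p = 0.0319), Myom1 (-0.60, SE 0.18, adjusted p = 0.0145) and Myom2 (-0.58, SE 0.20, adjusted p = 0.0335) fell. Of these, Ttn was lost without basal Sesn1SkM-Tg replicates 1, 2 or 4 or immobilized Sesn1SkM-Tg replicates 2 or 3 (adjusted p from 0.0637 to 0.218), Cmya5 without basal Sesn1SkM-Tg replicate 1 or immobilized Sesn1SkM-Tg replicate 3 (adjusted p from 0.0594 to 0.163), Tmod4 without basal Sesn1SkM-Tg replicates 1, 3 or 4 or immobilized Sesn1SkM-Tg replicates 2 or 3 (adjusted p from 0.0541 to 0.266), Myom1 without immobilized Sesn1SkM-Tg replicate 3 (adjusted p = 0.149) and Myom2 without basal Sesn1SkM-Tg replicates 1, 2 or 4 or immobilized Sesn1SkM-Tg replicates 2 or 3 (adjusted p from 0.0592 to 0.34). In Sesn2SkM-Tg muscle, Ttn (-1.24, SE 0.31, adjusted p = 0.00477), Cmya5 (-0.96, SE 0.28, adjusted p = 0.0121) and Lmod3 (-0.54, SE 0.15, adjusted p = 0.00907) fell, and the call held in 8 of 8 fits with 1 library left out. Neb (-0.79, SE 0.29, adjusted p = 0.0445), Tmod4 (-0.56, SE 0.17, adjusted p = 0.0187) and Tnnc1, which rose (1.25, SE 0.42, adjusted p = 0.0258), were lost in some: Neb without basal Sesn2SkM-Tg replicates 1, 3 or 4 or immobilized Sesn2SkM-Tg replicates 1, 2 or 3 (adjusted p from 0.0573 to 0.131), Tmod4 without basal Sesn2SkM-Tg replicate 2 or immobilized Sesn2SkM-Tg replicate 2 (adjusted p from 0.0657 to 0.0794) and Tnnc1 without basal Sesn2SkM-Tg replicates 1, 3 or 4 or immobilized Sesn2SkM-Tg replicates 1 or 4 (adjusted p from 0.0509 to 0.0942). Xirp1 rose in Sesn2SkM-Tg muscle (2.15, SE 0.49, adjusted p = 0.00223) and gave 1.20 (SE 0.53, adjusted p = 0.0832) in Sesn1SkM-Tg muscle.

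The other called members of these comparisons are given for Sesn1SkM-Tg and then Sesn2SkM-Tg muscle. Mybpc2 (-1.10, SE 0.19, adjusted p = 0.000322, and -1.10, SE 0.18, adjusted p = 0.000117), Myoz1 (-1.05, SE 0.20, adjusted p = 0.000607, and -1.18, SE 0.19, adjusted p = 7.63e-05), Actn3 (-0.88, SE 0.19, adjusted p = 0.0017, and -0.88, SE 0.18, adjusted p = 0.000889) and Tmod1 (-1.03, SE 0.13, adjusted p = 2e-05, and -0.89, SE 0.12, adjusted p = 1.97e-05) fell in both. Fbxl22 rose in Sesn1SkM-Tg muscle (1.66, SE 0.37, adjusted p = 0.00188), from 2.72, 1.96, 3.05 and 2.19 to 3.49, 10.5 and 24.0, and gave 0.75 (SE 0.34, adjusted p = 0.101) in Sesn2SkM-Tg muscle. Actc1 fell in Sesn2SkM-Tg muscle (-1.52, SE 0.41, adjusted p = 0.00813), from 17.7, 40.0, 9.33 and 12.7 to 8.08, 3.77, 3.13 and 7.89, and gave -0.89 (SE 0.45, adjusted p = 0.13) in Sesn1SkM-Tg muscle. Mybpc1 (-0.60, SE 0.17, adjusted p = 0.00927) and Myom1 (-0.66, SE 0.17, adjusted p = 0.0055) fell in Sesn2SkM-Tg muscle.

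Genotypes were then compared directly within a state, against the same WT libraries for both transgenic lines. Between Sesn1SkM-Tg and WT muscle limma called 0 of 42 members in the basal state (2 at an unadjusted p under 0.05), where 0.0292% of all genes differed, and 0 after immobilization (1 at an unadjusted p under 0.05), where 0.0073% did, and 1 member passed there without immobilized Sesn1SkM-Tg replicate 3. Between Sesn2SkM-Tg and WT muscle 3 members were lower in the basal state and none higher by limma, where 2.5% of all genes differed, 1.5% higher and 1% lower. These were Mybph, with 39.9, 32.6, 13.3 and 89.8 in WT and 6.77, 4.54, 8.07 and 1.82 in Sesn2SkM-Tg muscle (-2.67, SE 0.55, adjusted p = 0.00949), Actc1 with 43.0, 82.2, 80.9 and 141 and 17.7, 40.0, 9.33 and 12.7 (-2.16, SE 0.41, adjusted p = 0.00581), and Myl4 with 25.9, 6.40, 15.2 and 8.78 and 1.68, 4.11, 1.43 and 2.23 (-2.05, SE 0.31, adjusted p = 0.000645). In all 3 genes every Sesn2SkM-Tg library was below every WT library of set 1. Basal WT libraries of set 2 had 5.92 to 9.03 of Mybph, 1.24 to 6.27 of Myl4 and 35.3 to 92.0 of Actc1. Levels were not tested between sets. Without basal WT replicate 4 of set 1, 5 members were called.

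After immobilization, 3 members differed between Sesn2SkM-Tg and WT muscle, 1 higher and 2 lower, where 2.94% of all genes differed, 1.65% higher and 1.29% lower. Myl2 was higher in Sesn2SkM-Tg muscle, with 18.7, 10.96, 8.87 and 47.5 against 3.44, 6.76 and 2.50 (1.89, SE 0.51, adjusted p = 0.0472), and Fbxl22 was lower, with 5.59, 8.20, 3.26 and 9.24 against 26.1, 29.1 and 38.3 (-2.15, SE 0.37, adjusted p = 0.00433). Actc1 had 8.08, 3.77, 3.13 and 7.89 against 20.2, 34.8 and 12.8 (-1.79, SE 0.45, adjusted p = 0.0335). The call of Actc1 was lost without immobilized Sesn2SkM-Tg replicates 2 or 3 or immobilized WT replicates 1 or 2 (adjusted p from 0.0696 to 0.128), and that of Myl2 without immobilized Sesn2SkM-Tg replicates 1, 2 or 4 or immobilized WT replicates 1, 2 or 3 (adjusted p from 0.0508 to 0.206). The call of Myl2 was also lost with a pseudocount of 0.1 (2.12, adjusted p = 0.0884), with median centring (1.87, adjusted p = 0.0547) and in a fit of only these 2 groups (1.89, adjusted p = 0.0745). At a common sum Tpm1 also passed (-0.64, adjusted p = 0.0411). The differences between the immobilization effects of genotypes were tested as interaction terms. For Sesn1SkM-Tg against WT, 0 of 42 members passed by limma (4 at an unadjusted p under 0.05), where 0% of all genes did, and for Sesn2SkM-Tg against WT 0 passed (6 at an unadjusted p under 0.05), where 0.0073% did. For Fbxl22, which rose by 3.32 in WT, 1.66 in Sesn1SkM-Tg and 0.75 (not called) in Sesn2SkM-Tg muscle, the Sesn2SkM-Tg effect minus that of WT was -2.56 (SE 0.50, adjusted p = 0.106), and it passed in a fit of only the compared groups (-2.56, adjusted p = 0.0192).

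In Sesn1KO muscle immobilization changed 15 of 42 members, 8 higher and 7 lower, where 37.1% of all genes differed, 17.2% higher and 19.9% lower. At a common sum 17 differed, 11 higher and 6 lower, and with quantile normalization 18, 11 higher and 7 lower. Acta1 became called higher on both scales, Myot and Ldb3 at a common sum and Mylpf and Neb with quantile normalization, and Tmod4 lost the call at a common sum. Ky had 334, 258, 266 and 325 in basal and 12.9, 15.4, 37.3 and 59.9 in immobilized Sesn1KO muscle (-3.45, SE 0.38, adjusted p = 5.94e-07), and Myoz3 58.0, 50.6, 38.9 and 51.2 and 17.9, 11.04, 28.8 and 15.2 (-1.46, SE 0.23, adjusted p = 4.03e-05). Every immobilized library was below every basal one in both genes. Mylk2 (-1.22, SE 0.17, adjusted p = 1.18e-05), Mybpc2 (-0.75, SE 0.17, adjusted p = 0.00128), Actn3 (-0.75, SE 0.18, adjusted p = 0.00187) and Myoz1 (-0.74, SE 0.15, adjusted p = 0.000592) fell too, and so did Tmod4 (-0.36, SE 0.11, adjusted p = 0.0175), which was lost without basal Sesn1KO replicate 1 or immobilized Sesn1KO replicate 1 (adjusted p from 0.0561 to 0.0705).

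Xirp1 rose most in Sesn1KO muscle, from 83.1, 86.4, 115 and 108 to 2443, 895, 1051 and 575 (3.45, SE 0.34, adjusted p = 9.44e-08), followed by Myom3, from 7.69, 29.8, 20.8 and 23.7 to 219, 83.6, 200.4 and 166 (3.02, SE 0.34, adjusted p = 5.75e-07), and Lmod2 (2.45, SE 0.18, adjusted p = 2.27e-09). Immobilized libraries were above the basal ones in these genes. Myoz2 (1.55, SE 0.29, adjusted p = 0.000273), Xirp2 (1.16, SE 0.21, adjusted p = 0.000171) and Actn2 (1.00, SE 0.19, adjusted p = 0.000331) rose as well. Mybph (1.78, SE 0.61, adjusted p = 0.0258) and Fbxl22 (1.28, SE 0.41, adjusted p = 0.017) passed, but lost the call, Mybph without basal Sesn1KO replicates 1, 2 or 3 or immobilized Sesn1KO replicates 1, 2 or 3 (adjusted p from 0.0542 to 0.0883) and Fbxl22 without basal Sesn1KO replicate 3 or immobilized Sesn1KO replicates 2 or 4 (adjusted p from 0.0543 to 0.0842). Myl2 had 1.28, 19.4, 6.28 and 17.3 in basal and 9.40, 0.773, 5.45 and 16.7 in immobilized Sesn1KO muscle (-0.39, SE 0.56, adjusted p = 0.624), and these groups overlapped.

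Sesn1KO and WT muscle were not told apart in these genes. In the basal state limma called 0 of 42 members (5 at an unadjusted p under 0.05), where 0.147% of all genes differed, and after immobilization 0 (7 at an unadjusted p under 0.05), where 0.947% did. After immobilization 1 member passed without Sesn1KO replicate 2 or WT replicate 3, and 2 passed without Sesn1KO replicate 4. The effect of immobilization in Sesn1KO minus that in WT muscle passed in 0 of 42 members (4 at an unadjusted p under 0.05), where 0.022% of all genes passed. For Myl2, which rose in WT but was not called in Sesn1KO muscle, that difference was -2.32 (SE 0.80, adjusted p = 0.438), and for Xirp1 it was 1.31 (SE 0.47, adjusted p = 0.476). A p that misses the threshold does not show that the genotypes act alike, and the SEs of these differences are of the size of many changes given above.

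Ratios to a fast isoform were taken within each library for 9 pairs, 8 of a slow gene and its fast counterpart and Actn2/Actn3, in which Actn2 is found in all fibers, which removes any scaling of the whole library. They are given as a description without a test. How often pairs of other genes part the same groups was not examined, so the counts below have no share to be set against. In WT muscle of set 2, 5 of the 8 slow to fast ratios and Actn2/Actn3 were higher in every immobilized library than in every basal one. The largest increase was in that of the regulatory light chains, Myl2 as a percent of Mylpf, with 0.0363% ± 0.0127 (SD, n = 4) in basal and 0.187% ± 0.0273 (SD, n = 4) in immobilized muscle. Actn2 as a percent of Actn3 was 11.1% ± 2.49 (SD, n = 4) and 38.9% ± 13.0 (SD, n = 4), and Myoz2 as a percent of Myoz1 1.54% ± 0.659 (SD, n = 4) and 7.46% ± 1.87 (SD, n = 4). The other 3 were Tnni1/Tnni2, Tnnc1/Tnnc2 and Mybpc1/Mybpc2.

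After denervation, 4 of the 8 slow to fast ratios were higher in every denervated than in every basal library: Tnni1/Tnni2, Tnnt1/Tnnt3, Mybpc1/Mybpc2 and Myoz2/Myoz1. A higher ratio is not always a gain of the slow gene here. Mybpc1 itself fell, by less than Mybpc2, and Myoz2 was not called while Myoz1 fell. Tnni1 was called higher, a call lost without denervated replicate 1, and Tnnt1 was not called. Both were near the floor of the measurement. Tnnt1 as a percent of Tnnt3 was 0.0167% ± 0.00569 (SD, n = 4) in basal, 0.0606% ± 0.0471 (SD, n = 4) in denervated and 0.0215% ± 0.00372 (SD, n = 4) in immobilized muscle. Denervated replicate 1 was at 0.131% and the others at 0.0425, 0.0377 and 0.0313%, with a mean of 0.0372% without it. Actn2 as a percent of Actn3 was 9.20% ± 0.999 (SD, n = 4) in denervated muscle, which overlapped basal muscle. Between denervated and immobilized libraries, Tnnt1/Tnnt3 was higher in all denervated ones, and Myl2/Mylpf, Myl3/Myl1 and Actn2/Actn3 were lower in all of them.

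In set 1, WT muscle had 2 of the 8 slow to fast ratios higher in every immobilized library (Tpm3/Tpm1 and Myoz2/Myoz1), Sesn1SkM-Tg muscle 5 and Sesn2SkM-Tg muscle 6. In set 2, Sesn1KO muscle had 2 (Mybpc1/Mybpc2 and Myoz2/Myoz1). Groups held 3 or 4 libraries, and smaller groups part more easily, but WT and Sesn1SkM-Tg muscle of set 1 had groups of equal size. Whether groups part also depends on their spread. No test was made of these counts, so they do not compare genotypes. The interaction terms between genotypes called 0 of 42 members in each case. Actn2/Actn3 was higher in every immobilized library of Sesn1SkM-Tg, Sesn2SkM-Tg and Sesn1KO muscle, and overlapped in WT muscle of set 1. Myoz2/Myoz1 was the pair higher in all 5 immobilization comparisons. It was 2.13% ± 1.63 (SD, n = 4) in basal and 8.24% ± 2.53 (SD, n = 3) in immobilized WT muscle of set 1, 0.931% ± 0.579 (SD, n = 4) and 8.69% ± 4.71 (SD, n = 3) in Sesn1SkM-Tg, 3.12% ± 1.71 (SD, n = 4) and 14.7% ± 3.81 (SD, n = 4) in Sesn2SkM-Tg, and 2.43% ± 1.03 (SD, n = 4) and 11.9% ± 4.49 (SD, n = 4) in Sesn1KO muscle. The basal WT ratios of set 1 were spread wider than those of set 2, as in Actn2/Actn3 with 5.14 to 29.2% and 9.71 to 14.8%.

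**Figure D5:**
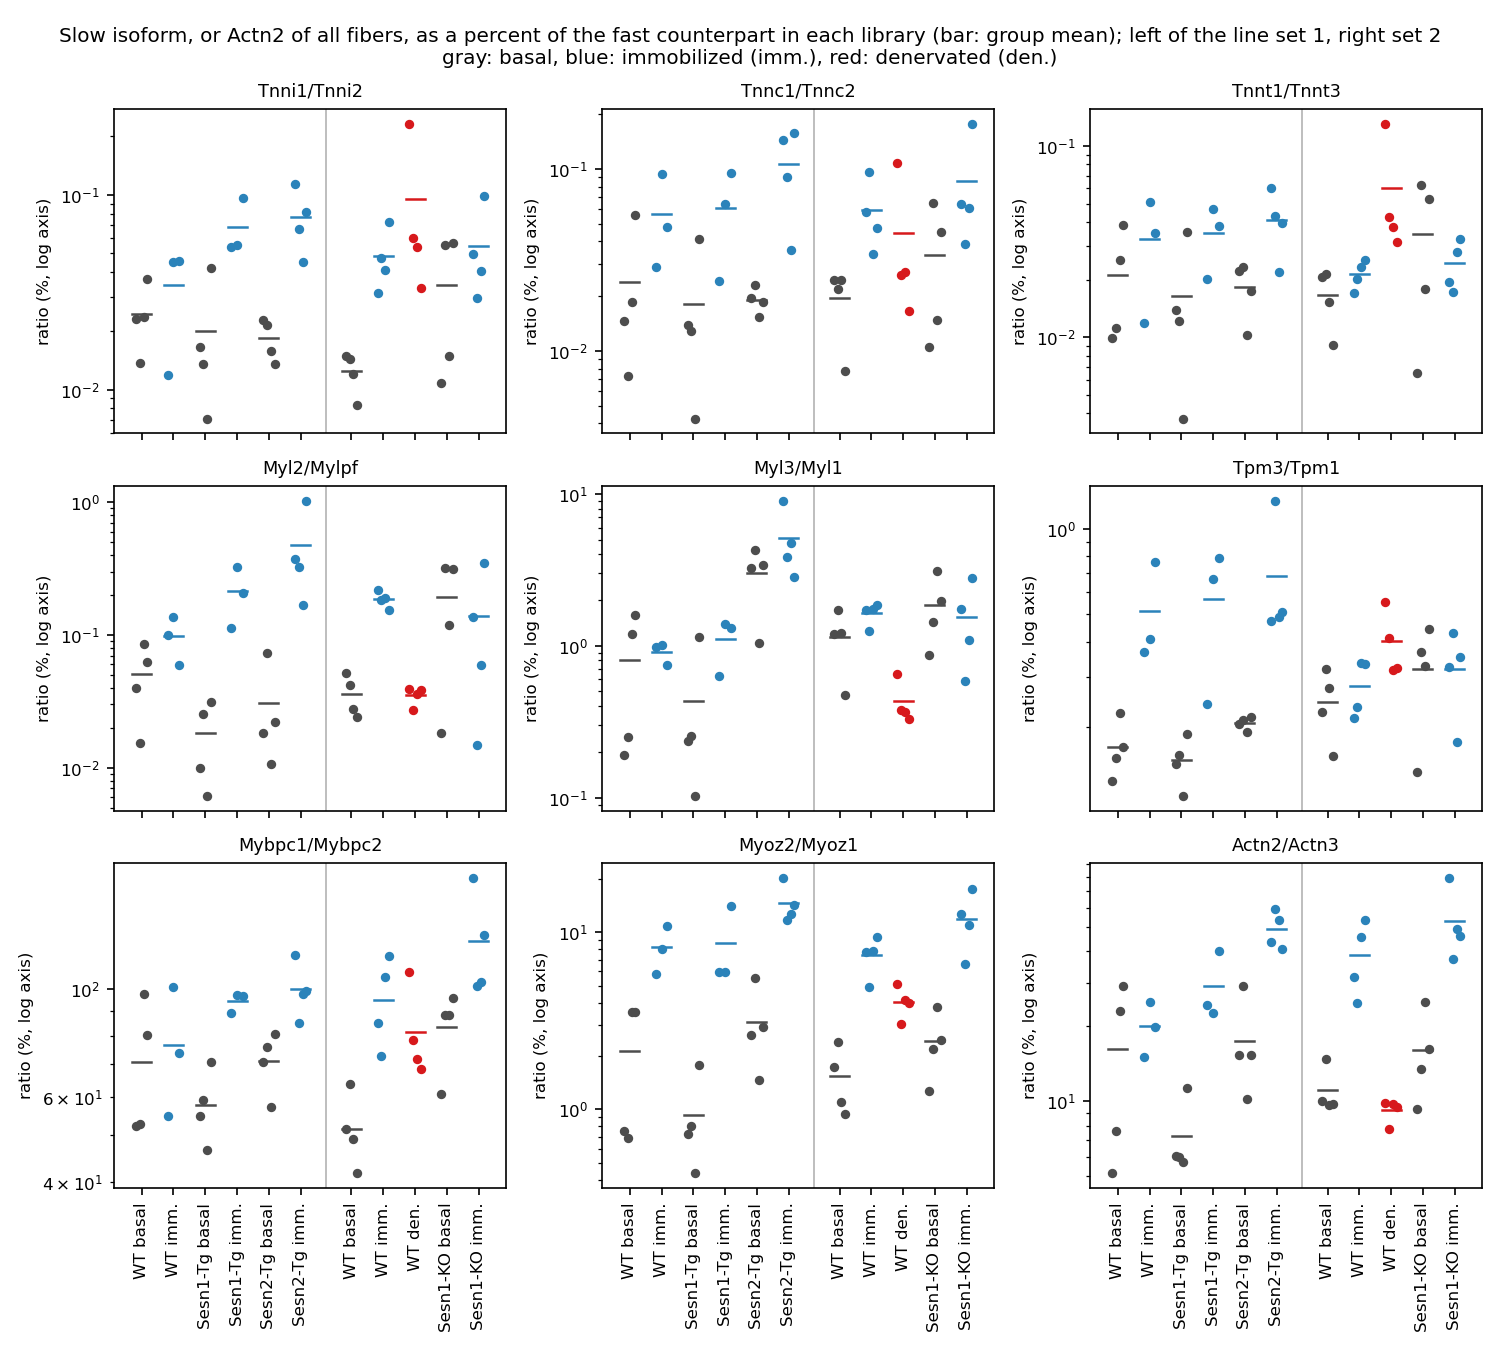
Level as a percent of that of the fast counterpart (log axis) for 8 slow genes and for Actn2, which all fibers make, with a point per library in each of the 11 groups and a bar at the group mean. Immobilized WT libraries lie above basal ones in most pairs of set 2, while the Sesn1KO groups overlap in most, and basal WT libraries of set 1 are spread widely.

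The WT immobilization effects of the 2 sets differed in 3 members, all higher in set 2, where 6.2% of all genes differed, 3.16% higher and 3.04% lower. The difference was 1.21 (SE 0.37, adjusted p = 0.039) for Lmod2, 0.94 (SE 0.23, adjusted p = 0.0119) for Mybpc1 and 0.82 (SE 0.20, adjusted p = 0.0119) for Ldb3. The labels say only that the RNAseq was done in 2 sets, and what else differed between the sets cannot be told apart from this difference. Without immobilized WT replicate 3 of set 1 none of the 3 passed by limma (Mybpc1 adjusted p = 0.0557, Ldb3 adjusted p = 0.0562), and with quantile normalization 0 members did. Lmod2 held in 5 of 15 fits that left out 1 library, as it was lost without basal WT replicates 3 or 4 of set 1, or immobilized WT replicates 1, 2 or 3 of set 1, or basal WT replicates 1, 2 or 3 of set 2, or immobilized WT replicates 2 or 3 of set 2 (adjusted p from 0.0529 to 0.0984), and it was also lost at a common sum (1.00, adjusted p = 0.0882).

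The members were read beside 33 other genes of the sarcomere and its turnover, of which 31 were in the table. After denervation 11 of the 31 rose and 11 fell, beside 27.8% and 27.7% of all genes. After immobilization of WT muscle 17 rose and 5 fell in set 2 (16.2% and 17.7% of all genes), and 11 rose and 8 fell in set 1 (14.9% and 14.5%). Denervated against immobilized, 1 was higher and 20 were lower (20.5% and 18.4%). The largest rises after denervation were in Ankrd2 (4.06), a stretch-sensitive ankyrin repeat protein, Trim63 (2.32), the ubiquitin ligase MuRF1 that acts on thick filament proteins, and Flnc (1.67), the muscle filamin. The largest falls were in Synpo2 (-1.72), an actin-binding Z-disc protein, Smyd1 (-1.68), a methyltransferase needed to assemble myosin, and Synm (-1.37), an intermediate filament protein.

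Under immobilization Csrp3, the muscle LIM protein of the Z-disc, and Ankrd2 rose most in both sets, with log2 fold changes of 3.63 and 2.58 in set 1 and 5.74 and 4.40 in set 2. They were followed by Pdlim3 (2.02), a PDZ and LIM protein, in set 1 and Fhl1 (2.55), a LIM protein of muscle, in set 2. Smyd1 (-1.34 and -0.57) and Trim55 (-1.20 and -0.54), the ligase MuRF2, were among the 3 largest falls in both sets, joined by Synpo2 (-1.43) in set 1 and Capza2 (-0.43), an actin capping protein, in set 2. In transgenic muscle 11 rose and 8 fell for Sesn1SkM-Tg (18.2% and 16.5% of all genes) and 11 rose and 9 fell for Sesn2SkM-Tg (15% and 15.7%), and in Sesn1KO muscle 16 rose and 3 fell (17.2% and 19.9%).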

How the data were processed

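RNA of the tibialis anterior was measured in 42 libraries of 11 groups. Per the study's methods and the submitters' processing notes, the authors checked reads with FastQC and trimmed them with cutadapt 1.7.1. Reads were counted per gene with RSEM 1.2.20 on the GRCm38 transcriptome, and the study names limma for normalizing the counts. The submitters' notes also name edgeR among the tools. The deposited signal is one table of 13809 genes, in which each value is a normalized count on a linear scale as the authors made it. Its reads and library depths are unknown, so precision comes from the spread between libraries alone. How the authors joined the 2 sets or filtered genes is not given in the sources used here. A symbol was missing for 103 genes, and 0 columns of per-sample values were set aside. GENCODE M21 gave exon lengths and gene positions, and RefSeq gave promoters, both on GRCm38.

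Values were taken as log2(value + 1). Genes at 1 or more in at least 1 library were fitted with limma 3.58.1 (R 4.3.3), separately in the 22 libraries of set 1 (13705 genes) and the 20 of set 2 (13629 genes). A fit over both sets (13763 genes) gave the difference between the sets. The table is not of raw counts, so no count model was used. Fold changes on this scale understate those of low genes. Each of the 17 comparisons was adjusted by Benjamini-Hochberg over all genes in its fit, and calls needed an adjusted p below 0.05 and a log2 fold change of 0.25 or more in either direction, thresholds the study also used. Groups and replicate numbers came from the sample labels. Nothing in them says that libraries of a group came from separate mice, so p-values measure the spread between libraries, and libraries of a group correlated at 0.958 to 0.991 in log2 values. Of the other sarcomere genes, the 3 called with the largest change in each direction were named, in denervated and in both sets of immobilized WT muscle.

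The members, their classes and the other lists were chosen with earlier results of these data known. In simulated libraries with 200 changed genes, the procedure called 162 (81%) at a log2 change of 1 and 199 (99.5%) at 2 for immobilized against basal WT muscle of set 1, and 189 (94.5%) and 199 (99.5%) for denervated against basal muscle. The changed genes were drawn only from those well above the floor, and noise was independent between genes. These shares therefore do not cover low members such as Tnni1, Tnnc1, Tnnt1, Myl2 and Fbxl22. In the data, 4018 and 7567 genes were called in these comparisons, far more than 200. Alternatives were other pseudocounts and filters, other scaling of the libraries, a fit of only the compared groups or of both sets, a higher fold threshold, a replicate block, and leaving out each library. Tables and figures were made with Python 3.11.15, pandas 2.3.3, numpy 2.4.6 and matplotlib 3.10.9.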

Additional observations from a re-analysis of the deposited data

Results flagged for a closer look

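In groups of 4 libraries, 28 of 378 combinations of a member and a group held a library whose gap to the nearest of the others was above Dixon's 95% critical value. Chance flags about 1 in 20. Values are normalized counts, with the range of the other 3 libraries of the group after each.

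Denervated WT replicate 1 was the highest of its group in 5 members used in slow fibers or the heart. It had 15.5 of Myl3 (others 9.56 to 9.99), 8.20 of Tnni1 (1.52 to 2.38), 3.69 of Tnnc1 (0.748 to 1.12), 10.9 of Tnnt1 (3.43 to 4.07) and 23.5 of Actc1 (6.85 to 7.76). Denervated WT replicate 3 had 8.50 of Fbxl22 (4.04 to 4.71).

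Basal Sesn2SkM-Tg replicate 2 was highest in Myl1 at 7583 (others 5164 to 5386), Myl2 at 7.24 (0.777 to 1.52), Tpm2 at 12594 (6401 to 7379) and Actn2 at 2339 (839 to 1072). Basal Sesn2SkM-Tg replicate 3 was highest in Mybpc2 at 5662 (4431 to 4627). Basal Sesn1SkM-Tg replicate 4 was highest in Myl3 at 76.2 (9.12 to 18.98), Actn2 at 844 (432 to 460) and Tcap at 1965 (1592 to 1616). Basal WT replicate 4 of set 1 was highest in Tpm2 at 9807 (4927 to 5681) and Tcap at 3459.6 (1516 to 1820).

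Basal WT replicate 4 of set 2 was lowest in Tnnc1 at 0.625 (others 1.66 to 1.83) and Myom3 at 5.12 (9.98 to 10.8). Basal Sesn1KO replicate 4 was highest in Mybph at 17.2 (4.01 to 4.81), and replicate 1 was lowest in Myl4 at 5.18 (7.51 to 7.89).

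Among immobilized libraries, Sesn2SkM-Tg replicate 1 was lowest in Mylk2 at 284 (others 353 to 361) and highest in Mybph at 23.7 (5.83 to 8.18). Sesn2SkM-Tg replicate 2 was lowest in Tnnc2 at 4487 (6095 to 6206) and Tcap at 1212 (2065 to 2160.3). WT replicate 1 of set 2 was highest in Myl1 at 6466 (5831 to 5856), and WT replicate 2 of set 2 was lowest in Tpm2 at 5444 (6697 to 6775). Sesn1KO replicate 3 was highest in Tpm1 at 13965 (9317 to 10017), and Sesn1KO replicate 2 was lowest in Ttn at 4095 (6385 to 6750).

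The immobilization effect in WT muscle differed between the sets, by the tested difference of set 2 minus set 1, for Mybpc1 by 0.94, for Ldb3 by 0.82 and for Lmod2 by 1.21 on the log2 scale.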

How the results depend on the processing

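Depth is unknown, the libraries may share mice, and the scale of the libraries moves the levels of the most abundant members, so the direction of small changes in them is uncertain. Counts below are called members, and causes were not tested. The share of all genes called at each setting is not given here. The counts therefore show how calls of members move with the setting, and are not compared between groups. Quantile normalization gave 9 for immobilized WT muscle of set 1 and 0 for the difference between the sets. A fit of only the compared groups gave 7 for immobilized Sesn2SkM-Tg against WT muscle (4 higher, 3 lower), where Myl3 (1.88), Myom3 (1.73), Actn2 (1.24), Lmod2 (1.09) and Myl4 (-1.08) became called and Myl2 was lost, and 1, Fbxl22, for the difference of their immobilization effects. A fit of both sets gave 5 for basal Sesn2SkM-Tg against WT muscle, where Myl3 (1.99) and Myom3 (1.76) became called. A log2 threshold of 1 gave 7 for immobilized WT muscle of set 1, 13 for Sesn1SkM-Tg, 12 for Sesn2SkM-Tg, 21 for denervated against basal, 22 for denervated against immobilized muscle and 1 for the difference between the sets. After denervation, quantile normalization turned Mylpf (0.0042), Tnni2 (0.19), Tnnt3 (0.082), Actn3 (0.34), Acta1 (0.33) and Neb (0.42, adjusted p = 0.00993 by limma), and against immobilized muscle Tnni2 (0.079). The common sum turned Acta1 (0.023) and Tmod1 (0.43). Fits of only the compared groups also ended the calls of Tpm1, Myom2, Ttn and Myom1 in immobilized Sesn1SkM-Tg muscle, of Mybph and Fbxl22 in immobilized Sesn1KO muscle, of Actc1 in basal Sesn2SkM-Tg against WT muscle and of Lmod2 between the sets, and called Myl2 (-0.60, adjusted p = 0.00975 by limma), Tnnt1 and Fbxl22 after denervation. The fit of both sets ended those of Xirp1 after denervation, Xirp2 in immobilized WT muscle of set 2, Tpm3 and Myom3 in denervated against immobilized muscle, Tmod4 in immobilized Sesn1KO muscle, and Myl2 and Actc1 in immobilized Sesn2SkM-Tg against WT muscle. Other variance settings ended those of Tpm3, Myom3 and Tmod1 in denervated against immobilized muscle, Actc1 in immobilized WT muscle of set 2, Mybph in immobilized Sesn1KO muscle and Myl2 in immobilized Sesn2SkM-Tg against WT muscle.

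With 1 library left out, counts ranged from 12 to 20 for immobilized WT muscle of set 1, 13 to 24 for Sesn1SkM-Tg (13 without its immobilized replicate 3), 21 to 29 for Sesn2SkM-Tg, 14 to 16 for WT muscle of set 2 and for Sesn1KO, and 34 to 36 for denervated against basal and against immobilized muscle. Between genotypes they ranged from 3 to 5 for basal and 1 to 2 for immobilized Sesn2SkM-Tg, 0 to 1 for immobilized Sesn1SkM-Tg and 0 to 2 for immobilized Sesn1KO, and for the difference between the sets from 0 to 4. Of 175 called changes of members, 137 held in every such fit.

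The labels number the replicates alike in each group, but the numbers did not pair the libraries. Deviations of libraries with the same number correlated at a median of 0.0365 in set 1 (18 of 51 pairs above 0.1) and -0.0287 in set 2 (6 of 40), and 6 of 22 and 4 of 20 libraries correlated best with their own number. With the number as a replicate block, 36 members were called after denervation, 17 in immobilized WT muscle of set 1 and 18 in that of set 2, and no count moved by over 1.5 times. The block changed 9 calls. Myom3 in immobilized WT and Sesn2SkM-Tg muscle, Tnnc1 in Sesn1SkM-Tg, Lmod3 in WT of set 2 and Myot in Sesn1KO muscle became called, and Myom2 and Ttn in immobilized Sesn1SkM-Tg muscle, Myl2 in immobilized Sesn2SkM-Tg against WT and Myom3 in denervated against immobilized muscle were lost.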
